A study of Mus musculus with 13 samples.

Results

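Esrrb, Tfcp2l1, Tbx3, Prdm14, Zfp42 (also called Rex1), Nr5a2 and Nanog encode transcription factors of naive mouse pluripotency. They were taken by name, 7 of 21887 protein-coding genes on the placed chromosomes. For each, the ChIP-seq peaks within the gene or up to 20 kb from either of its ends were read from all 12 deposited peak lists, in mm10 coordinates. All 7 genes were found in the RefSeq annotation of GRCm38.p6, which has mm10's coordinates.

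Naive pluripotency is the state of the inner cell mass of the early embryo and of mouse embryonic stem cells (ESCs) kept with LIF and inhibitors of MEK and GSK3. A set of transcription factors that bind each other's enhancers maintains it. Most of these factors are not expressed in fibroblasts. In reprogramming with OCT4, SOX2, KLF4 and c-MYC (OSKM), activation of the endogenous naive network is regarded as a late step. H3K27ac is a histone acetylation found at active promoters and enhancers. NCoR and SMRT are nuclear receptor co-repressors that bind and activate the histone deacetylase HDAC3, and so can remove acetylation where they sit.

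H3K27ac was mapped in OSKM cultures of mouse embryonic fibroblasts (MEFs) at days 5, 9 and 13 that also received either HDAC3-YF, an HDAC3 mutant without deacetylase activity, or a FLAG control plasmid. It was also mapped in ESCs and in untreated MEFs. NCoR and SMRT were mapped in OSKM cultures at day 9, with no further plasmid given in the labels, and in ESCs. MEFs and all OSKM cultures were of strain C57BL/6J-OG2 and ESCs of strain C57BL/6J. ESCs were grown in N2B27-based medium with LIF, CHIR99021 and PD0325901, whereas infected MEFs were moved to ESC medium with LIF and serum or serum replacement, so cell type, strain and medium cannot be told apart in any comparison with ESCs. The labels call the OSKM samples intermediate cells and name no sorting. In bulk samples fewer cells with a mark and less of the mark per cell cannot be told apart.

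With 13 libraries in 13 groups, there is no spread between replicates and no test between conditions, and the 95% Wilson intervals below cover the counting of peaks only. The H3K27ac lists held between 14251 and 16944 peaks in OSKM cultures, 25499 in ESCs and 26591 in MEFs. The NCoR and SMRT lists held between 3687 and 5179. Read depth is not known. The share of peaks at the score ceiling of 200 lay between 1.67% and 11.9% in the OSKM lists, and was 24.4% in ESCs and 25.9% in MEFs. Of 8 ESC markers, including Utf1 and Dppa5a, all 8 had a peak in ESCs and 4 had one in MEFs. Of 10 fibroblast markers, including Col1a1 and Prrx1, 4 had a peak in ESCs and all 10 had one in MEFs. Among all protein-coding genes, 68.0% had a peak in ESCs and 68.6% in MEFs.

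In ESCs every one of the 7 genes carried H3K27ac, as 68.0% of all protein-coding genes did, and the loci differed widely in how much and where. The windows held 43 ESC peaks. Esrrb, an orphan nuclear receptor of the oestrogen-related family, had 11. Tfcp2l1, a grainyhead-family factor downstream of LIF and STAT3, had 9. Nr5a2, the orphan nuclear receptor LRH-1, had 6. Tbx3, a T-box factor, had 5 peaks, as did Zfp42, a zinc finger protein used as a marker of the naive state, and Nanog, the homeodomain factor central to pluripotency. Prdm14, a PR-domain protein that keeps DNA methylation and FGF signalling low in naive cells, had 2.

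The gene bodies range from 7.145 kb at Nanog to 160.512 kb at Esrrb, and longer windows can hold more peaks. Per 100 kb of window the order changed. Nanog was densest with 10.6 ESC peaks per 100 kb, followed by Zfp42 with 9.63, Tfcp2l1 with 9.25 and Tbx3 with 9.23. Esrrb had 5.49, Nr5a2 3.80 and Prdm14 3.72. The neighbouring values from Nanog to Tbx3 differ by less than 1 peak per window. The median over all protein-coding genes was 1.78 ESC peaks per 100 kb, and 2.90% of genes were denser than Nanog while 29.2% were denser than Prdm14.

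**Figure D1:**
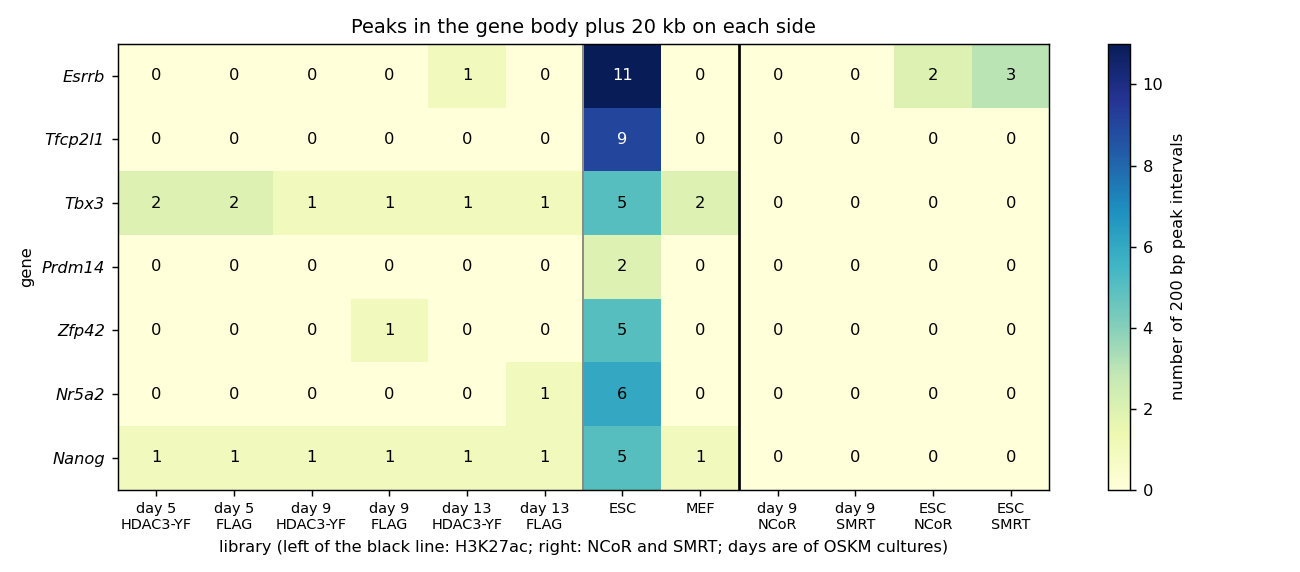
Number of deposited 200 bp peak intervals within 20 kb of each gene, by gene (rows) and library (columns). The ESC H3K27ac column holds 43 peaks, each of the other H3K27ac columns holds 2 or 3, and the co-repressor columns are at 0 outside Esrrb in ESCs.

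At Esrrb (chromosome 12, 86361117 to 86521628, plus strand) all 11 ESC peaks lay inside the gene body. The first was 34.9 kb and the last 150.5 kb from the first annotated start. The other 10 lay from 74.8 kb onward, and 3 of them, at 109 kb, 137 kb and 142 kb, had the ceiling score of 200. A second start is annotated at 86421644, upstream of these 10 peaks. The ESC peak nearest to an annotated start was 14.3 kb from this second start. Esrrb was the one member without a listed ESC peak within 1 kb of an annotated end or start.

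At Tfcp2l1 (chromosome 1, 118627923 to 118685168, plus strand) the 9 ESC peaks ran from 0.510 kb upstream of the start to 62.2 kb downstream of it, with 7 in the gene body. Ceiling scores were listed at the promoter and at 15.0 kb and 19.3 kb into the gene. The peaks were spaced by a median of 6.90 kb. The window also holds the nearest end of Clasp1, a microtubule-binding protein gene 18.5 kb away, but no ESC peak lay there.

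At Zfp42 (chromosome 8, 43295067 to 43307009, minus strand) 1 of 5 ESC peaks lay in the gene, 0.409 kb downstream of the start, with the ceiling score. The other 4 lay upstream, at 2.24, 4.04, 14.9 and 19.0 kb, and the one at 14.9 kb also had the ceiling score. No other gene is annotated in the window.

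At Nr5a2 (chromosome 1, 136842562 to 136960448, minus strand) all 6 ESC peaks lay in the first 11.5 kb of the gene or upstream of it, and the remaining gene body held none. The single ceiling score was at 6.96 kb, 145 bp from the second annotated start. A peak at 2.16 kb into the gene had a score of 72.35. The 3 upstream peaks, at 12.5, 18.2 and 19.8 kb, had scores of 7.58, 6.93 and 6.99, close to the lowest in the ESC list, 6.61.

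At Nanog (chromosome 6, 122707489 to 122714633, plus strand) none of the 5 ESC peaks lay in the gene body. They were at 17.1, 12.3, 4.54 and 0.392 kb upstream of the first start and 8.46 kb downstream of it, which is 1.31 kb beyond the gene. The peak 4.54 kb upstream had the ceiling score and the promoter peak a score of 141.99. The window also holds part of Slc2a3, a glucose transporter gene that begins 13.2 kb beyond Nanog, but every ESC peak lay nearer to Nanog.

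For Tbx3 and Prdm14 no strand was given in the tables used here, so positions are from annotated ends. At Tbx3 (chromosome 5, 119670534 to 119684724) ceiling scores were listed 0.300 kb inside the lower-coordinate end and at 10.2 kb. Weaker peaks lay 13.5 and 9.60 kb outside that end, both within the non-coding gene Tbx3os1, and 1.36 kb beyond the other end, within Tbx3os2. The ceiling-score peak 0.300 kb inside the lower-coordinate end also lay within Tbx3os1. At Prdm14 (chromosome 1, 13113428 to 13127163) the 2 ESC peaks had scores of 17.05 and 21.35. The first lay 0.328 kb inside the higher-coordinate end, and the other 18.3 kb outside the lower one, in the non-coding gene Gm39592. The window also holds part of the protein-coding gene Ncoa2, 11.9 kb away, but both ESC peaks lay nearer to Prdm14. Prdm14 was the one member with no ceiling score.

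**Figure D2:**
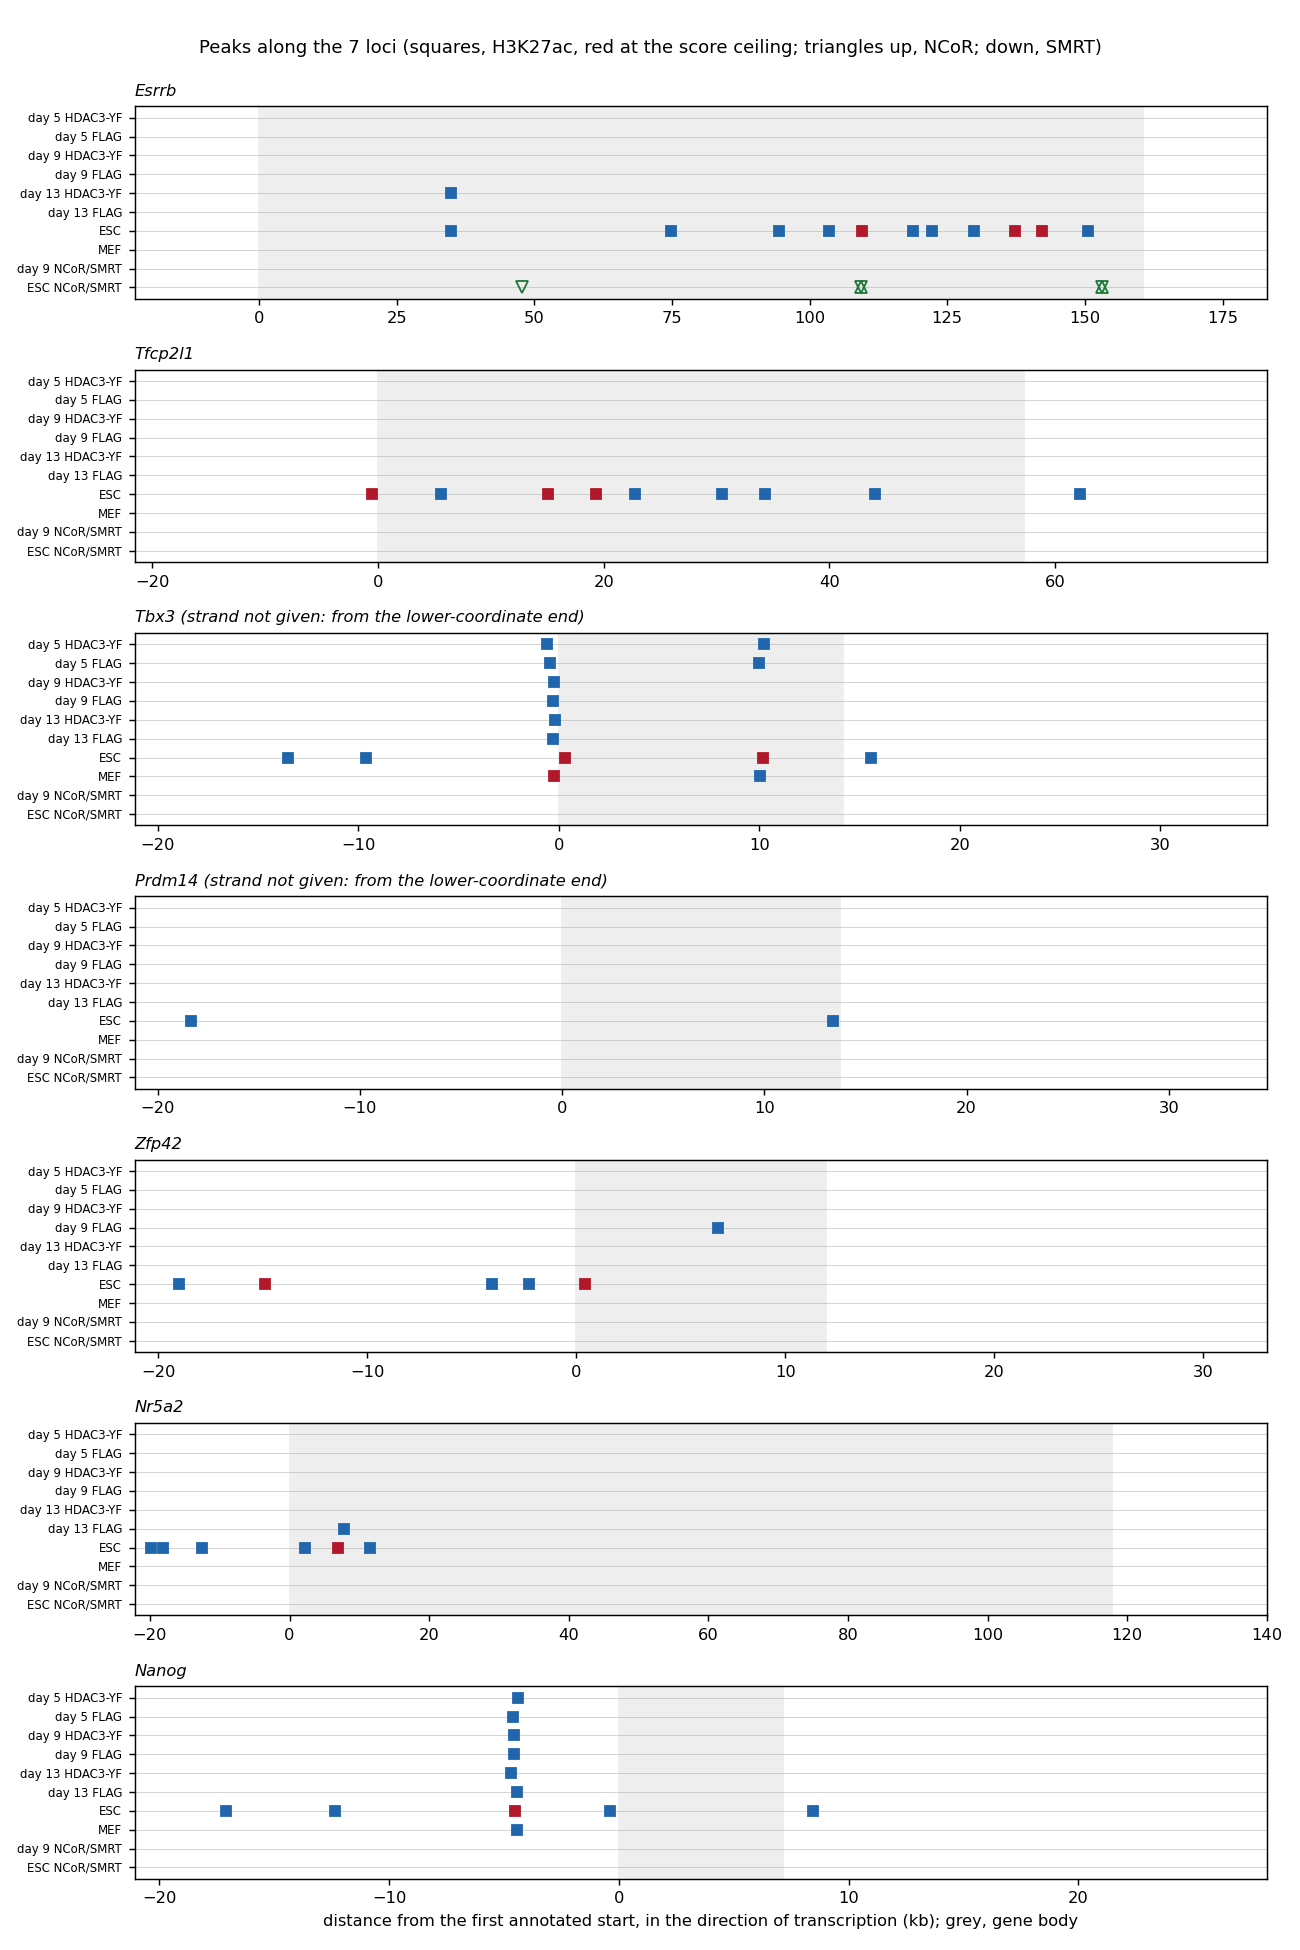
Positions of all peaks along each gene, as distance in kb from the first annotated start or, for Tbx3 and Prdm14, from the lower-coordinate end. Squares are H3K27ac peaks (red at the score ceiling of 200) and triangles NCoR and SMRT peaks. ESC peaks sit at 2 to 11 places of each locus. Outside ESCs peaks sit at 1 or 2 places of Tbx3, at 1 place of Nanog, and singly at Esrrb, Zfp42 and Nr5a2.

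The deposited score is the authors' own, with no stated scale, and serves here to rank peaks within a list. The 43 member peaks had a median score of 30.08, against 35.76 over all ESC peaks, and 19 lay above that list median. The ceiling was reached by 12 of 43, or 27.9% (16.7 to 42.7%), against 24.4% (23.9 to 25.0%) of all ESC peaks. The share of ceiling scores at these genes thus has an interval that includes that of the whole list.

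**Figure D3:**
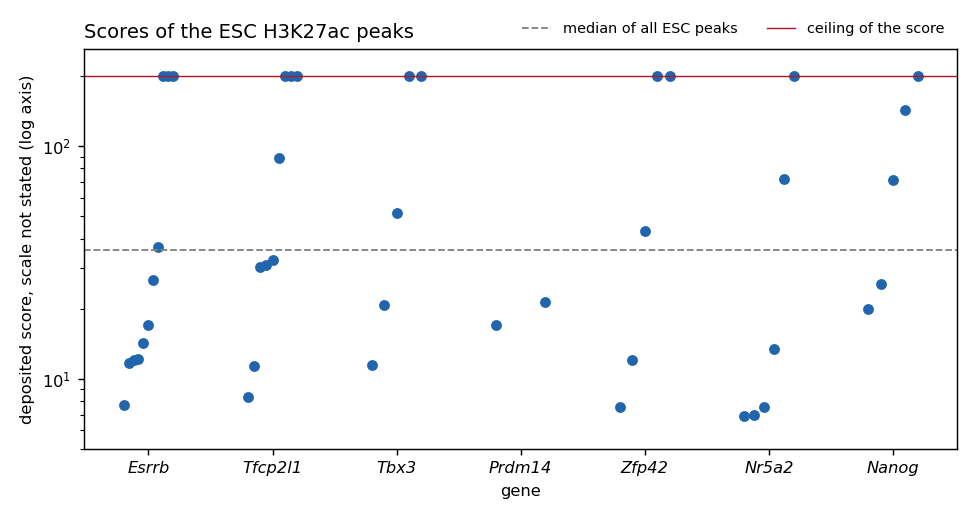
Deposited score of each ESC H3K27ac peak by gene, on a log axis, with the median of all ESC peaks (35.76, dashed) and the ceiling of 200 (red). Every gene but Prdm14 reaches the ceiling, and the lowest score, 6.93, is at Nr5a2.

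Promoter sequences were looked at because 6 of 7 genes had an ESC peak within 1 kb of an annotated end or start. Those of Tfcp2l1, Zfp42, Nr5a2 and Nanog are shown because an ESC peak of high score lies beside each. The 250 bases before the start nearest to that peak (for Nanog the first start) are given 5′ to 3′ on the gene's strand, from RefSeq's GRCm38.p6. Capitals mark matches, on either strand, to 5 short motifs. They are TTTGCAT for POU factors such as OCT4, ACAATG for SOX factors, TCAAGGNCA for ESRRB and NR5A2, CACGTG, the E-box bound by MYC, and CCACCC for KLF factors.
Nanog, chr6:122707239-122707488, plus strand: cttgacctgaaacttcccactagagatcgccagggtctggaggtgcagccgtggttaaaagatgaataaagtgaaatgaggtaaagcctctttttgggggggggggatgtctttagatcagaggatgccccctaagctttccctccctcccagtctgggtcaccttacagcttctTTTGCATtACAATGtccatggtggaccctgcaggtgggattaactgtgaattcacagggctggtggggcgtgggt
Zfp42, chr8:43307010-43307259, minus strand: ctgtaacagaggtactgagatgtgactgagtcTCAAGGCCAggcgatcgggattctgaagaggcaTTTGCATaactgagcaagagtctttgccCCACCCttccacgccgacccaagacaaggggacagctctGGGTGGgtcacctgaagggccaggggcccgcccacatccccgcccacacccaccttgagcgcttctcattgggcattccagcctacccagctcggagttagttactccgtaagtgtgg
Tfcp2l1, chr1:118627695-118627944, plus strand: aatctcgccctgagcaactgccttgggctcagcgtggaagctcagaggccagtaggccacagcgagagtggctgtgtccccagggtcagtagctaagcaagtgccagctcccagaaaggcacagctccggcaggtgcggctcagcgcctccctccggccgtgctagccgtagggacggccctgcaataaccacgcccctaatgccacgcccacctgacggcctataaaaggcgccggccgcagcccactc
Nr5a2, chr1:136953631-136953880, minus strand: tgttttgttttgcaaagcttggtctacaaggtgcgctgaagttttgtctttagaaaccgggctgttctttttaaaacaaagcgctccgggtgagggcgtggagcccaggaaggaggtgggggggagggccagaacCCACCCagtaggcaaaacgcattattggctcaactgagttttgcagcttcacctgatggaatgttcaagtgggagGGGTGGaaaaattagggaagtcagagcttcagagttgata

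The Nanog promoter held TTTGCAT from 75 to 69 bases before the start and ACAATG from 67 to 62 bases before it, with 1 base between them. Over the same length, TTTGCAT was present in 3.86% and ACAATG in 9.35% of 21263 promoters of protein-coding genes. The Zfp42 promoter held TCAAGGCCA from 218 to 210 bases before the start, a match present in 1.13% of promoters. It also held TTTGCAT from 185 to 179 bases before the start and a KLF match on each strand. CCACCC, the match in the Nr5a2 promoter, was present in 30.2% of promoters. The Tfcp2l1 stretch held none of the 5, and none of the 4 stretches held CACGTG, which was in 6.63% of promoters. The motifs do not overlap each other in these stretches, and a match describes letters only. The nearest ESC peak ended 41 bp from the Nanog stretch, 309 bp from the Zfp42 stretch, 159 bp from the Tfcp2l1 stretch and 45 bp from the Nr5a2 stretch.

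ESCs were compared with MEFs to see how far the loci are marked in the starting cells. All 7 genes had a higher number of H3K27ac peaks in ESCs, where 27.8% of all protein-coding genes did and 22.7% had a lower one. The median difference was 5 peaks against 0 over all genes. In total the windows held 43 peaks in ESCs and 3 in MEFs. Esrrb, Tfcp2l1, Prdm14, Zfp42 and Nr5a2 had none in MEFs, and 5.50% of all genes had a peak in ESCs and none in MEFs. Tbx3 had 5 peaks in ESCs and 2 in MEFs, and Nanog had 5 in ESCs and 1 in MEFs. In MEFs 2 of the 7 genes thus had a peak, where 68.6% of all genes did. A difference of at least 4 peaks was seen at Esrrb, Tfcp2l1, Zfp42, Nr5a2 and Nanog, and at 3.10% of all genes. The difference of 11 peaks at Esrrb was exceeded at 7 genes genome-wide and that of 9 at Tfcp2l1 at 26 genes. The difference of 2 at Prdm14 was exceeded at 6.07% of genes.

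**Figure D4:**
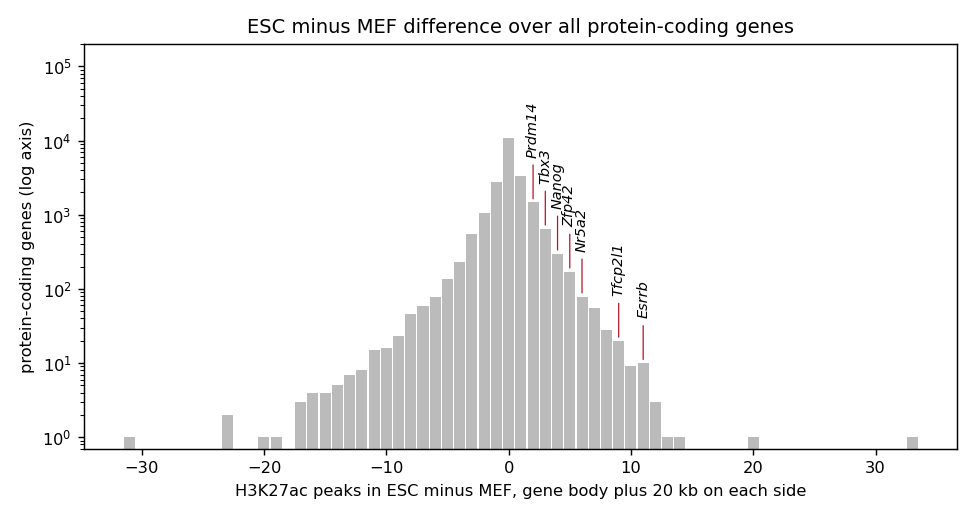
Distribution over 21887 protein-coding genes (log axis) of the H3K27ac peak count in ESCs minus that in MEFs, with the 7 genes marked. All 7 lie on the side of more peaks in ESCs, from 2 at Prdm14 to 11 at Esrrb.

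The 7 loci held few H3K27ac peaks in OSKM cultures through day 13, with HDAC3-YF and with FLAG. Against 43 peaks in ESCs, the windows at day 5 held 3 with HDAC3-YF and 3 with FLAG. For day 9 the sums were 2 with HDAC3-YF and 3 with FLAG, and for day 13 they were 3 with each. MEFs also had 3. A peak was present at 2 genes with HDAC3-YF and 2 with FLAG at day 5 (61.5% of all genes in each list), at 2 and 3 genes on day 9 (61.2% and 62.3%) and at 3 and 3 on day 13 (63.3% and 62.5%), HDAC3-YF before FLAG. All 7 genes had fewer peaks on day 13 than in ESCs, where 36.2% of all genes did with HDAC3-YF and 36.8% with FLAG. At Tfcp2l1 and Prdm14 MEFs and all 6 OSKM lists were at 0, a pattern of H3K27ac in ESCs alone that 2.73% of all genes had. The OSKM peak nearest to Tfcp2l1 was 38.0 kb away, within Clasp1, in the day 5 FLAG list, and at Prdm14 the nearest was 121 kb away. At Zfp42 the day 13 lists held no peak closer than 1628 kb with HDAC3-YF and 1438 kb with FLAG.

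Tbx3 and Nanog each carried in all 6 OSKM lists a peak with its centre within 1 kb of that of a MEF peak. Tbx3 had a second such peak in both day 5 lists. Esrrb, Zfp42 and Nr5a2 each had a single peak in a single list.

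At the lower-coordinate end of Tbx3 each of the 8 H3K27ac lists held a peak, with centres within 879 bp of each other. No MEF or OSKM interval there overlapped the ESC interval, and neither day 5 interval overlapped the MEF one. The score on day 5 was 13.88 with HDAC3-YF and 20.1 with FLAG. The day 9 scores were 20.11 with HDAC3-YF and 31.12 with FLAG, and those of day 13 were 7.12 with HDAC3-YF and 8.18 with FLAG. In ESCs and in MEFs it was at the ceiling. The score was thus lower with HDAC3-YF at each day, but scores of separate lists have no known common scale. The second Tbx3 peak, about 10 kb into the gene, was listed at day 5 with HDAC3-YF (6.83) and with FLAG (7.66), in ESCs (200) and in MEFs (13.75). It was absent from all 4 lists of days 9 and 13.

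At Nanog a peak between 4.38 and 4.68 kb upstream of the start was listed in all 8 libraries, within 300 bp of each other. Its score was 149.28 with HDAC3-YF and 54.84 with FLAG at day 5. At day 9 it was 107.31 with HDAC3-YF and 112.41 with FLAG, and at day 13 it was 19.68 with HDAC3-YF and 39.64 with FLAG. In ESCs it was at the ceiling, and in MEFs it was 90.83. Between 55.9% and 87.2% of the peaks in each list scored lower than this one. The difference between HDAC3-YF and FLAG thus had no common direction over the days. The other 4 ESC peaks of Nanog, the promoter peak included, had no listed peak within 1 kb in MEFs or in any OSKM library.

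**Figure D5:**
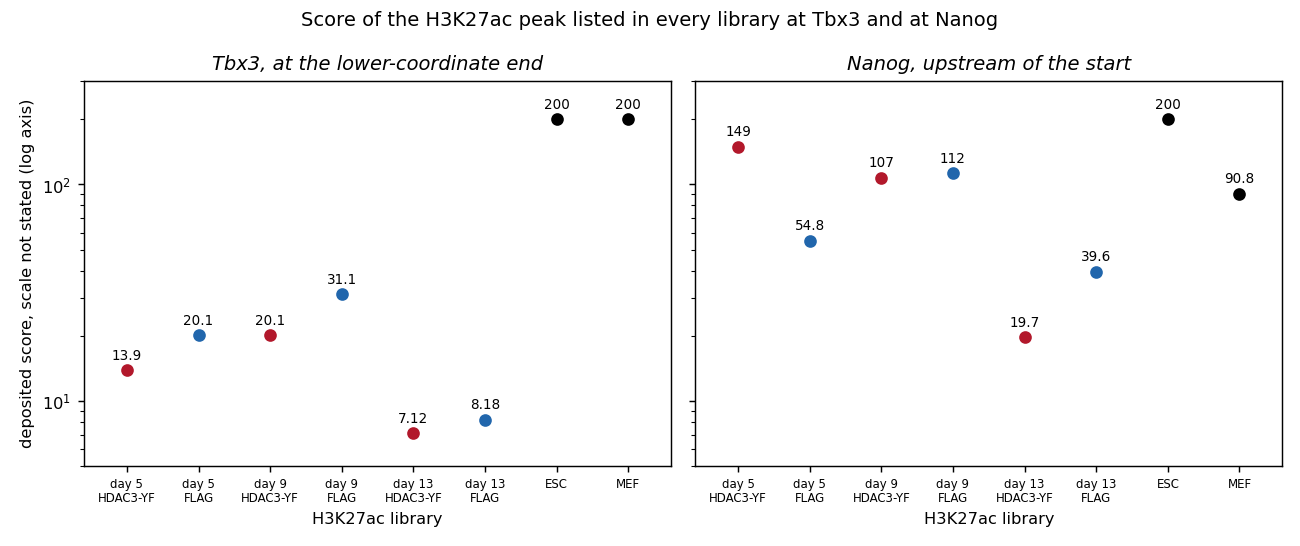
Deposited score, on a log axis, of the H3K27ac peak at the lower-coordinate end of Tbx3 (left) and upstream of Nanog (right) in each library (red HDAC3-YF, blue FLAG, black ESC and MEF). The Tbx3 peak is at 31.1 or lower in all 6 OSKM lists, and the Nanog peak lies between 19.7 and 149 there.

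The 3 remaining peaks were the only places where HDAC3-YF and FLAG differed in count. At day 13 Esrrb had 1 peak with HDAC3-YF and 0 with FLAG, where 15.5% of all genes had more peaks with HDAC3-YF. It lay 34.8 kb into the gene (86395794 to 86395993) with a score of 8.26, and 17.8% of its list scored lower. Its centre was 100 bp from the most proximal of the 11 ESC peaks, which it overlapped. At day 13 Nr5a2 had 0 peaks with HDAC3-YF and 1 with FLAG, where 16.4% of all genes had fewer with HDAC3-YF. That peak (136952612 to 136952811) had a score of 7.08, with 5.54% of its list lower, and lay 774 bp from the ceiling-score ESC peak near the second start. At day 9 Zfp42 had 0 peaks with HDAC3-YF and 1 with FLAG, where 15.0% of all genes had fewer with HDAC3-YF. The Zfp42 peak (43300110 to 43300309) had a score of 6.81, with 1.07% of its list lower, and lay 6391 bp from the nearest ESC peak. At day 5 no member differed, where 14.2% of all genes had more and 11.0% fewer peaks with HDAC3-YF. Across the 3 days the 7 genes gave 1 higher and 2 lower counts with HDAC3-YF, of 21 gene and day pairs, beside background shares of 10.7 to 15.5% higher and 11.0 to 16.4% lower.

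Seen from the ESC peaks, few positions had a counterpart in MEFs or OSKM cultures. Of the 43 ESC peaks of the 7 genes, 40 (93.0%, 81.4 to 97.6%) overlapped no peak of the other 7 H3K27ac lists, against 48.1% of all ESC peaks. At day 13, 2 of 43 overlapped an HDAC3-YF peak and 1 a FLAG peak, where 35.4% and 32.7% of all ESC peaks did, HDAC3-YF given before FLAG. On day 5 they were 2 with HDAC3-YF and 1 with FLAG (33.6% and 34.9% of all ESC peaks), and on day 9 they were 1 with each (35.1% with HDAC3-YF and 34.8% with FLAG). A MEF peak overlapped 2 of 43, where 37.4% of all ESC peaks met one. With the wider rule of centres within 1 kb, 38 of 43 (88.4%, 75.5 to 94.9%) still had no peak in the other lists, against 41.5% of all ESC peaks. By that rule 5 of 43 had a peak in any OSKM list, at Tbx3 (2), Esrrb, Nr5a2 and Nanog, and 2 of 43 had one in all 7 other lists, against 30.9% of all ESC peaks.

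The co-repressors were next set against these loci. At day 9 no NCoR or SMRT peak lay in any of the 7 windows, where 37.2% of all protein-coding genes had one and 29.1% had both. In ESCs 1 of the 7, Esrrb, had such peaks, from both co-repressors, where 29.7% of genes had either and 19.6% both. The nearest day 9 peak of either co-repressor was 160 kb from Nanog, 169 kb from Tfcp2l1, 205 kb from Esrrb, 218 kb from Nr5a2, 462 kb from Prdm14, 710 kb from Tbx3 and 1628 kb from Zfp42. In ESCs the nearest peak outside Esrrb was a SMRT peak 29.8 kb from Nr5a2.

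Within Esrrb there were 2 NCoR and 3 SMRT peaks of ESCs, at 3 places. At 109 kb from the first start (86470427 to 86470626) NCoR and SMRT had the identical interval, and its centre was 67 bp from a ceiling-score ESC H3K27ac peak, which it overlapped. At 153 kb (86514204 to 86514403) the interval was again identical in both lists, and the nearest ESC H3K27ac peak was 2.71 kb away. At 47.8 kb (86408779 to 86408978) only SMRT was listed, with the nearest ESC H3K27ac peak 12.9 kb away. Identical intervals carry the same score in both lists, so the listings at the first pair of places are not independent of each other. The single OSKM peak of Esrrb, at day 13 with HDAC3-YF, lay 13.0 kb from the nearest of these places. Of the 43 ESC H3K27ac peaks, 1 overlapped an NCoR peak and the same 1 a SMRT peak of ESCs, where 6.06% and 6.49% of all ESC peaks did. None of the 43 overlapped a day 9 NCoR or SMRT peak, where 10.4% and 9.75% of all ESC peaks did.

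The same counts were taken for other genes of the pluripotent state. Of 28 other naive and general pluripotency genes, 23 had a higher count in ESCs than in MEFs (27.8% of all genes). A lower count was found at 3 of them (22.7% of all genes) and an equal one at 2. The 28 genes, which include the 8 ESC markers, had a median difference of 3 peaks. By the largest absolute difference they were led by Mybl2, a cell-cycle transcription factor, with 10 peaks in ESCs and 1 in MEFs, Tet2, a methylcytosine dioxygenase, with 10 and 1, Jarid2, a subunit of Polycomb complex PRC2, with 11 and 3, and Klf2, a KLF factor, with 9 and 2, ESCs before MEFs. At day 13, 12 of the 28 had more and 2 fewer peaks with HDAC3-YF than with FLAG, beside 15.5% and 16.4% of all genes, and the 7 naive factors had 1 and 1. The day 13 sums of the 28 genes were 50 with HDAC3-YF, 39 with FLAG and 128 in ESCs. Few of the 28 differed at day 5, where 1 was higher and 4 were lower with HDAC3-YF (14.2% and 11.0% of all genes). The sums were 38 with HDAC3-YF and 42 with FLAG. Day 9 gave 6 higher and 3 lower (10.7% and 15.0%), and sums of 47 with HDAC3-YF and 45 with FLAG. Day 9 co-repressor peaks lay in 10 of the 28 windows, where 37.2% of all genes had one. ESC ones lay in 12, where 29.7% of all genes had one.

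Of 15 genes of the formative and primed states, which follow the naive state, 8 had a higher count in ESCs than in MEFs. A lower count was found at 4 and an equal one at 3, with a median difference of 1. Over all genes 27.8% had a higher and 22.7% a lower count. Foxd3, a forkhead factor, had 8 peaks in ESCs and 0 in MEFs and in every OSKM list. Otx2, a homeodomain factor of the formative state, had 5 in ESCs and 0 in MEFs, and 1 with HDAC3-YF against 0 with FLAG at day 13. Zic2, a zinc finger factor, had 4 in ESCs and 0 in MEFs, and 4 with HDAC3-YF against 0 with FLAG at day 13. Cdh2, N-cadherin, had 1 in ESCs and 5 in MEFs. At day 5 the 15 genes summed to 12 peaks with HDAC3-YF and 8 with FLAG. Of them 3 were higher and 0 lower with HDAC3-YF (14.2% and 11.0% of all genes). On day 9 the sums were 9 and 10, with 2 genes higher and 2 lower (10.7% and 15.0%). At day 13 they were 20 and 9, with 7 genes higher and 0 lower (15.5% and 16.4%). Marker sums at that day also differed between the libraries. The 8 ESC markers had 14 peaks with HDAC3-YF and 8 with FLAG, and the 10 fibroblast markers had 8 with HDAC3-YF and 12 with FLAG. The 7 epithelial markers had 17 with HDAC3-YF and 10 with FLAG, the 6 primitive endoderm markers 5 and 1, and the 5 trophoblast markers 2 in each. Earlier the sums of the ESC markers were lower with HDAC3-YF, but few of the 8 genes differed. The day 5 sums were 7 with HDAC3-YF and 9 with FLAG, with 0 genes higher and 1 lower (14.2% and 11.0% of all genes). On day 9 the sums were 9 and 11, with 1 gene higher and 1 lower (10.7% and 15.0%). Fibroblast marker sums were 21 with HDAC3-YF and 14 with FLAG on day 5, then 8 and 22 on day 9. Epithelial ones were 11 in each day 5 list, then 12 with HDAC3-YF and 10 with FLAG on day 9. The part of other cell types in these counts was not tested.

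The genes whose counts over the 8 H3K27ac libraries were closest to each member, by the sum of absolute differences, are named next; of those named, Foxd3 is on the lists above. Casr matched Tfcp2l1 at a distance of 0, and Fcho1 and Foxd3 were among 3 genes at a distance of 1. Apela matched Nr5a2 at 0, with Car8 and Cdh4 among 11 genes at a distance of 1. For Esrrb the closest were Adam32 and Bmerb1 at a distance of 1, and Grik3 among 3 genes at 2. Zfp42 had Dtx1, Ffar1 and Ffar3 among 6 genes at 1, and Tbx3 had 4921524J17Rik, Cand1 and Elobl among 5 genes at 1. Nanog had 15 genes with the same 8 counts, of which Acad11, Ccpg1 and Chst5 come first by symbol. Genes with the same 8 counts were thus found for Tfcp2l1, Nr5a2 and Nanog, and for Esrrb, Zfp42 and Tbx3 the closest gene was at a distance of 1.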

How the data were processed

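The authors deposited 1 peak list per library for 12 of the 13 libraries, with a score per peak. Per the submitters' processing notes, Bowtie2 2.2.0 and MACS 1.4 were used with build mm10; settings are not given in the sources used here. Every deposited interval is 200 bp wide, and per the file values H3K27ac starts fall on a grid of 50 bp within each chromosome, so H3K27ac positions are known to about that step. The H3K27ac score has a ceiling of 200. The NCoR and SMRT score is signed and is no height. The input sample of ESCs was not used here.

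Peaks meeting a gene body plus 20 kb on each side by at least 1 bp were counted for all protein-coding genes of RefSeq's GRCm38.p6 table. Counting was checked on simulated data. Promoters of 5 of the 7 genes were in the RefSeq promoter table. Python 3.11.15, numpy 2.4.6, pandas 2.3.3 and scipy 1.17.1 were used. With 1 library per group no test was made. The genes and lists were chosen with earlier results of these data known. Named beside the 7 were protein-coding neighbours in the windows and the 4 genes of each list with the largest absolute ESC minus MEF difference. The 3 closest genes by count were also named for members with at least 4 ESC peaks, with ties taken by symbol. Alternatives were flanks of 5 and 50 kb, the top 50% and an equal number of peaks, merging within 1 kb, the nearest gene, and other overlap rules.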

Additional observations from a re-analysis of the deposited data

How the results depend on the processing

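The summed differences between ESCs and MEFs or day 13 cultures kept their direction under all alternatives run, and their sizes moved with the peaks counted. The summed difference between HDAC3-YF and FLAG did not keep one. At day 9 it was -1, and it was 1 with flanks of 50 kb and 0 with an equal number of peaks. At day 5 it was 0, and -1 with flanks of 50 kb, and at day 13 it was 0, and 1 with an equal number of peaks. With flanks of 50 kb the summed differences were 58 peaks for ESC minus MEF, -57 for HDAC3-YF at day 13 minus ESC and -57 for FLAG at day 13 minus ESC (40, -40 and -40 with 20 kb). With the top 50% of each list by score they were 17, -18 and -18, and with an equal number of 14251 peaks they were 21, -20 and -21. Members with H3K27ac in ESCs and in no other list numbered 2, with 1 at flanks of 50 kb and 4 in the top 50%. Members with a co-repressor peak in ESCs were 1, and 2 at 50 kb. Prdm14 had no ESC peak left in the top 50% or in the equal number, so that its difference was 0 there and 6 of 7 genes had a higher count in ESCs. Tbx3 had 12 ESC peaks and Nanog 10 with flanks of 50 kb. The Zfp42 peak at day 9 and the Nr5a2 peak at day 13, both FLAG, were in neither the equal number nor the top 50% of peaks. The Esrrb peak at day 13 with HDAC3-YF was not in the top 50%. The equal number, 14251, is the full length of the day 13 HDAC3-YF list. That list could therefore lose no peak at this setting, whereas every FLAG list was cut. In the top 50% the recurrent Tbx3 peak was also lost from 5 of the 6 OSKM lists, all but day 9 FLAG, so that 1 gene, Nanog, had H3K27ac in all 6 instead of 2. No paired analysis was possible because each group has 1 library with no replicate number to pair by; pairing HDAC3-YF with FLAG by day would treat 3 times as replicates and was not run. The unknown read depth limits what an absent peak can show.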
